A study of Mus musculus with 2 samples.

Results

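The data described here are those of 10 genes of the integrated stress response, namely Atf4, Atf3, Atf5, Ddit3, Trib3, Chac1, Cebpb, Cebpg, Sesn2 and Ddit4. They were chosen by name, with earlier results of these data known. Every probe set whose annotation gives 1 gene symbol, that symbol being one of the 10, was taken with its signal on both arrays. This gave 18 of 45101 probe sets on the array, and 10 of 18193 genes that have a probe set with 1 symbol. The samples are MOS-J cells, a mouse osteosarcoma line, in 2 groups of 1 array each. The control group carries a control lentiviral vector, and the DKK1 group a lentiviral vector with human DKK1, a secreted inhibitor of the canonical Wnt pathway. The treatment protocol gives G418-selected clones for the viral route and, besides it, a plasmid route with blasticidin-selected lines, later marked with a mitochondrial red fluorescent protein and sorted. Which cells were profiled is not stated beyond the labels' word lentivirus. With clones, or a single stable line, a difference between the arrays cannot be told apart from a difference between the lines chosen. The comparison asks how these tumour cells differ in expression when they carry human DKK1.

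In the integrated stress response, kinases that sense endoplasmic reticulum stress, amino acid shortage, double-stranded RNA or haem shortage phosphorylate the initiation factor eIF2. This slows translation in general but favours translation of the ATF4 mRNA. ATF4 pairs with C/EBP proteins and switches on genes for amino acid uptake and synthesis, redox balance and, through the factor CHOP, cell death. Because ATF4 is controlled largely through translation and protein turnover, its mRNA level alone is no measure of its activity.

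Values are MAS5 signals on a linear scale, 1 per probe set, a probe set being a group of short probes against the 3′ part of a transcript. Differences are DKK1 minus control in log2(signal + 16.6), where the pseudocount of 16.6 damps the noise of dim signals. Probe sets with a mean signal over both arrays of at least 71.3 are called measured, and the differences of a gene's measured probe sets were averaged. A gene was called where its difference reached 1 on the log2 scale (2-fold) with all its measured probe sets in that direction. With 1 array per group there is no replicate error, no test and no p-value, and an SD below is the spread between probe sets of 1 gene. Over all genes with several measured probe sets that pooled SD was 0.45 on the log2 scale.

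Of the 10 genes, 7 were called lower in the DKK1 cells, 0 were called higher and 3 were not called. Over all 11058 measured genes 6.91% were called lower and 11.7% higher by the same rule. Because the 10 genes were chosen with earlier results known, counts and shares are set side by side as a description only. The 10 genes are mostly bright, and past a stricter filter on the mean signal of 427 the counts were 8 of 10 against 8.82% of all genes. The median difference of the 10 genes was −1.74, against 0.10 over all measured genes. The order of differences ran from Trib3 at −4.13 through Atf3, Chac1, Ddit3, Ddit4, Atf4, Sesn2, Atf5 and Cebpg to Cebpb at 0.22. Trib3, Atf3 and Chac1 differed by more than 3 on the log2 scale (8-fold), a size reached downwards by 48 measured genes, or 0.434%. All 10 genes had a measured probe set, and 17 of the 18 probe sets were measured. Of those 17, 15 had the lower signal on the DKK1 array, and the other 2 were both of Cebpb. By gene, 9 of the 10 differences were below 0, against 44.1% of all measured genes. In such bulk RNA, fewer cells with a transcript and less of it per cell cannot be told apart. On 16 of the 17 measured probe sets both signals were above 71.3. At least 2-fold lower were 12 of the 17 by the ratio of signals and 11 with the pseudocount. Among all 22499 measured probe sets the share with the pseudocount was 7.07%. Atf3 stood at −3.99 without a pseudocount and at −3.28 with the pseudocount at the median of all signals.

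**Figure D1:**
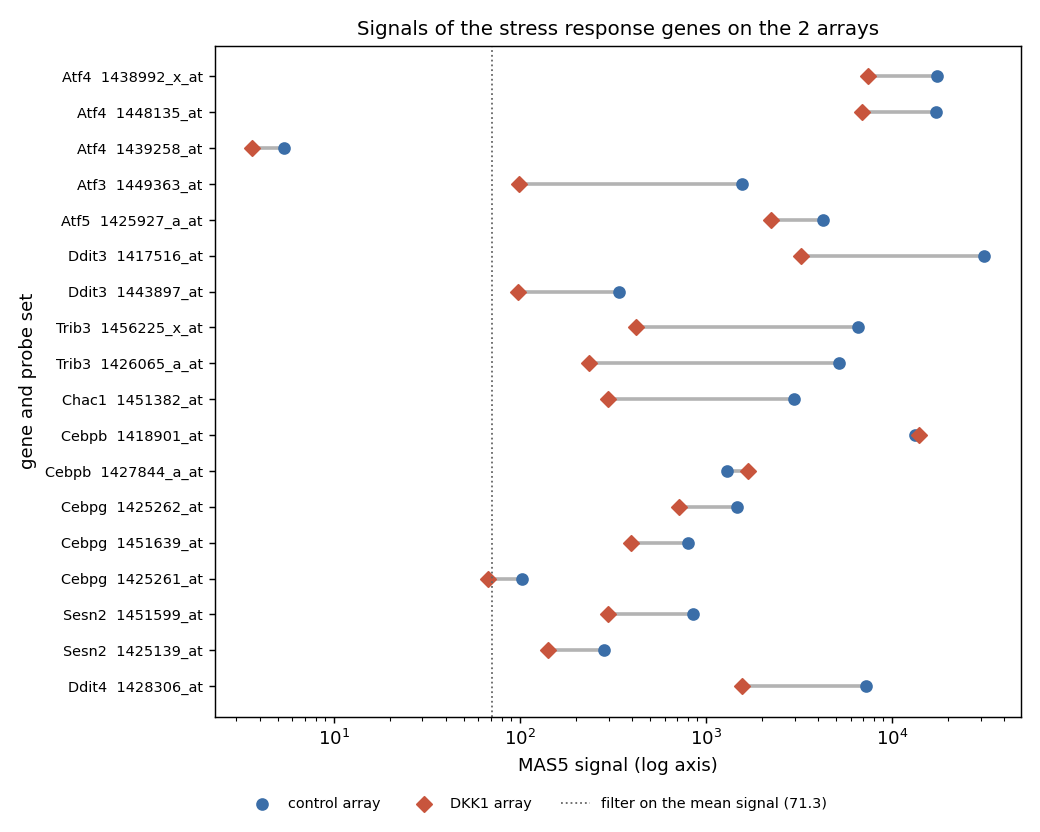
MAS5 signals (log axis) of the 18 probe sets of the 10 genes on the control array (blue circles) and the DKK1 array (red diamonds), joined by a grey line, with the filter of 71.3 dotted. The DKK1 signal lies to the left in every measured probe set except the 2 of Cebpb, and the longest lines are those of Trib3 and Atf3.

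Atf4 encodes the factor that carries the response to its target genes. Probe set 1448135_at read 17271 on the control and 6911 on the DKK1 array. Probe set 1438992_x_at, whose suffix marks probes that can bind other transcripts too, had 17447 and 7408. Both were thus lower in the DKK1 cells by nearly the same amount, 2.50-fold and 2.35-fold. The gene difference was −1.28 (SD 0.06 between 2 probe sets), with 4.16% of measured genes at or below it. A further probe set, 1439258_at, was dim on both arrays, with signals of 5.44 and 3.64, and did not count. Its inclusion ended the call, at −0.89.

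Atf3 encodes a bZIP repressor that is induced by many stresses, ATF4 activity among them. Its 1 probe set, 1449363_at, read 1565 on the control and 98.5 on the DKK1 array. The DKK1 signal was 6.30% of control, a difference of −3.78 and the second lowest among the 10 genes. Atf5 encodes a relative of ATF4 whose translation is controlled in a similar way and which acts on mitochondrial stress genes. Its probe set 1425927_a_at read 4244 in control against 2234 in DKK1 cells. This difference of −0.92 lay just short of the 2-fold rule, and Atf5 was not called, although median centring took it past the rule (−1.05). Among Atf3, Atf4 and Atf5, Atf3 differed most and Atf5 least. The order of Atf4 and Atf5 turned with dim probe sets included, at −0.89 and −0.92.

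Ddit3 encodes CHOP, a C/EBP relative that promotes cell death when stress persists. Probe set 1417516_at read 31201 on the control and 3255 on the DKK1 array, 9.58-fold lower. The dimmer probe set 1443897_at had 340.0 and 98.0, 3.47-fold lower. The 2 probe sets shared the direction but not the size, at −3.25 and −1.64. The gene difference of −2.45 therefore had an SD of 1.14 between probe sets, the widest among the 10 genes and above the pooled SD of 0.45.

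Cebpb and Cebpg encode C/EBP factors that form dimers with ATF4, and Cebpb also acts in inflammation and in fat and bone cell differentiation. For Cebpb, probe set 1418901_at read 13259.7 in control against 13944 in DKK1 cells, and 1427844_a_at had 1301 and 1679. Neither probe set was lower in the DKK1 cells, and the gene difference was 0.22 (SD 0.21), not called. On the scaling by poly-A controls described below it turned to −0.42. Cebpg was between the extremes. Its probe sets 1425262_at and 1451639_at had signals of 1464 and 806 in control against 718 and 397 in DKK1 cells, 2.04-fold and 2.03-fold lower. The remaining one, 1425261_at, was close to the filter at 103 and 67.3. The gene difference of −0.84 (SD 0.29) was not called, and without the dim probe set it just reached the 2-fold rule.

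Trib3 encodes a pseudokinase that binds ATF4 and CHOP and, as one of their target genes, feeds back on them. Probe set 1426065_a_at read 5192 on the control and 236 on the DKK1 array, or 4.55% of control. Probe set 1456225_x_at had 6534 and 422, or 6.45%. The gene difference of −4.13 (SD 0.33) was the lowest of the 10 genes and ranked 13 from the lowest among all measured genes. Chac1 encodes a cytosolic enzyme that breaks down glutathione and is induced through ATF4 and CHOP. Its 1 probe set, 1451382_at, read 2985 in control against 297 in DKK1 cells, a difference of −3.26 and a rank of 33. The DKK1 signal was thus 9.96% of control.

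Sesn2 and Ddit4 encode proteins that restrain the growth kinase complex TORC1. Sestrin 2 senses leucine and acts through the GATOR complexes, and DDIT4, also called REDD1, acts through TSC1 and TSC2. Sesn2 read 850.3 in control against 298 in DKK1 cells on 1451599_at, and 285 against 142 on 1425139_at. Both were lower in the DKK1 cells, at −1.46 and −0.92, and the gene difference was −1.19 (SD 0.38). Ddit4, which is also induced by hypoxia and glucocorticoids, read 7286 in control against 1566 in DKK1 cells on its 1 probe set, 1428306_at. Its difference was −2.21, with 0.995% of measured genes at or below it.

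**Figure D2:**
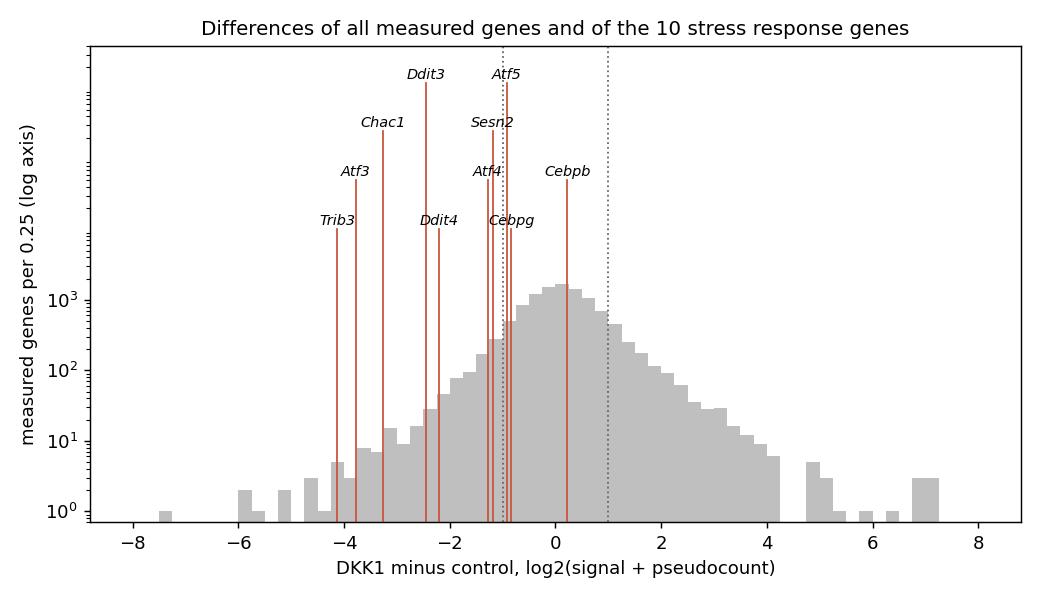
Number of measured genes (log axis) in bins of 0.25 of the difference DKK1 minus control in log2(signal + 16.6), with red lines at the 10 genes and dotted lines at 2-fold. The heights of the red lines carry no value. The 7 genes called lower lie beyond 2-fold to the left, Atf5 and Cebpg just inside it, and Cebpb at 0.22.

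The promoters were searched for the sequence through which ATF4, paired with C/EBP factors, is known to act, because most of these genes differed in 1 direction. RefSeq windows of assembly GRCm38.p6, from 250 bases before to 50 bases after the annotated start, were at hand for all 10 genes. The C/EBP-ATF response element, searched as TGATGNAAN on both strands, was found in the windows of Atf3, Chac1 and Trib3 and in none of the other 7 genes. It occurs in 3.95% of all 32851 windows and, counted by gene, in 2.52% of the 8982 measured genes with a window. Among the 10 genes, the 3 with a match were also the 3 with the largest differences, which is given as a description with no test. Each match lies on the strand opposite to the gene, so it reads in reverse in the stretches printed here, where capitals mark its first 8 bases. These stretches are shown because they hold the only matches among the 10 genes.
Atf3: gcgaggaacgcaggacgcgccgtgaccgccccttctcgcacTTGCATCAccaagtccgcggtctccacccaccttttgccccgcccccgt
Chac1: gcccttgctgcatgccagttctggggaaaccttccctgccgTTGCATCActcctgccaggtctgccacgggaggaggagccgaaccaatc
Trib3: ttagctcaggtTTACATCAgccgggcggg

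The Atf3 stretch is chr1:191183395-191183484 on the minus strand, from 151 to 62 bases before the start, with the match from 111 to 103 bases before it. The Chac1 stretch is chr2:119351008-119351097 on the plus strand, from 234 to 145 bases before the start, and its match lies 194 to 186 bases before. In Trib3 the match lies within the transcribed part, at bases 14 to 22, in the stretch chr2:152344029-152344057 on the minus strand. Atf3 and Chac1 hold the same 8 letters and Trib3 differs from them at the free position. A palindromic cAMP response element, TGACGTCA, is in 1.79% of all windows, and the ER stress element, CCAAT followed after 9 bases by CCACG, in 0.119%. Neither was found in a window of the 10 genes. A missing match says only that these letters are not in these windows. Bases C and G made up 56.0% to 81.6% of the 250 bases before the start in the 11 windows of the 10 genes, with Cebpb the highest, against a median of 52.4% over all windows. By the same table Chac1, Trib3 and Cebpb lie on chromosome 2, Atf5 and Cebpg on 7, Ddit3 and Ddit4 on 10, and Atf3, Sesn2 and Atf4 on 1, 4 and 15.

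Among other genes known to be induced through ATF4, 37 of 44 measured (84.1%) were called lower, against 6.91% of all measured genes. In this list 1 was higher and 6 were not called, with a median of −1.76. Those that differed most were the mitochondrial folate enzyme gene Aldh1l2 (−4.73), the cystine transporter gene Slc7a11 (−4.67) and Ero1a (−3.65), an oxidase gene of disulfide formation. For Slc7a11 both DKK1 signals, 17.8 and 21.3, were below the filter, and raising them to it left folds of at least 19.2 and 8.33. The genes of serine synthesis Psph (−3.23) and Phgdh (−2.18) and the asparagine synthetase gene Asns (−2.69) were lower as well. The 1 higher gene was Slc7a3, a cationic amino acid transporter gene with dim signals of 79.5 and 192, called higher in 7 of 11 alternatives, while the neutral transporter gene Slc38a2 was not called, at 0.48. Of the 35 genes of this list with a promoter window, 14 held the C/EBP-ATF element, among them Asns and Slc7a11. Of the 14, Vldlr (−0.26) and Yars (−0.89) were not called, Fgf21 and Pycr1 had no measured probe set, and the rest were called lower. The element was found in 5.79% of 605 genes called lower with a window, 2.50% of 1001 called higher and 2.25% of 7376 not called. The lists and these genes were known to differ from earlier results, so these shares support nothing on their own.

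Upstream of ATF4, none of the 4 eIF2 kinase genes was called lower and 1 was called higher. By the same rule 6.91% of all measured genes were lower and 11.7% higher, and 4 genes are too few to stand apart from those shares. Eif2ak3 encodes PERK, the kinase that senses endoplasmic reticulum stress. Its measured probe set read 755 in control against 512 in DKK1 cells, a difference of −0.55 that was not called, though it stayed below 0 under all 12 alternatives and was called lower with poly-A scaling (−1.17). Eif2ak4 encodes GCN2, which senses uncharged tRNA, and had 404 and 402 (−0.01). Eif2ak1, the haem-regulated kinase gene, had 2 measured probe sets of opposite sign and a difference of −0.02 (SD 0.52). With its dim probe sets included it was at 0.66, not called. Eif2ak2 encodes PKR, which senses double-stranded RNA and is itself induced by interferon. Its 3 probe sets had signals of 418, 155 and 127 in control against 1658, 727 and 487 in DKK1 cells, a difference of 1.96 (SD 0.15) called higher. The kinases are switched on by binding and phosphorylation, which an mRNA level does not show.

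Ppp1r15a encodes GADD34, the stress-induced subunit that directs the removal of phosphate from eIF2 and is a target gene of the pathway. It read 2201 on the control and 353 on the DKK1 array, a difference of −2.58. Ppp1r15b, which encodes the constitutive counterpart, had 3358 and 2771 on its measured probe set (−0.28), and was not called. The chaperone gene Dnajc3, whose product inhibits PERK and PKR, was lower by all 5 of its probe sets (−1.45, SD 0.28). Over all 20 measured genes of the kinases, eIF2, its exchange factor eIF2B and the phosphatase, the median was −0.25. Of these 20, 4 were called lower (20.0%) and 1 higher, against 6.91% and 11.7% of all measured genes. The other 2 called lower were Eif2s3x (−1.06) and Eif2b3 (−1.24), which encode subunits of eIF2 and eIF2B. Both calls ended with hybridisation control scaling, at −0.70 and −0.87, and that of Eif2s3x under 3 further alternatives, at −0.92 to −0.95.

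**Figure D3:**
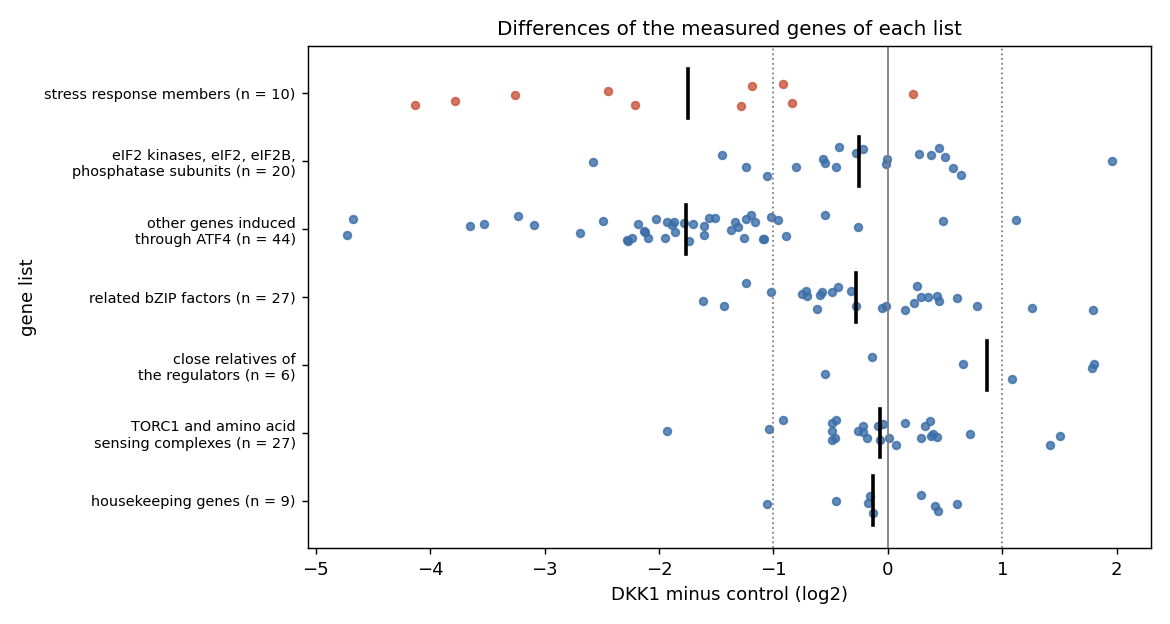
Difference DKK1 minus control (log2) of every measured gene in each of 7 lists, with the list's median as a black bar and dotted lines at 2-fold. Vertical scatter within a row carries no value. The 10 stress response genes and the other ATF4-induced genes have medians of −1.74 and −1.76, and the other 5 lists lie between −0.28 and 0.87.

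Among close relatives of the 4 effectors 0 were called lower. Of the 6 measured, 2 had differences below 0, against 44.1% of all measured genes. Sesn1 and Sesn3 encode the other sestrins, which p53 and FOXO factors are known to induce. Sesn1 had 3 measured probe sets, with signals of 979, 469 and 215 in control and 3482, 1586 and 789.9 in DKK1 cells. All 3 were higher by a similar amount, and the gene was called higher at 1.78 (SD 0.05), while Sesn2 was lower at −1.19. Sesn3 had 639 and 142 in control against 1914 and 224 in DKK1 cells (1.08, SD 0.68). Its call ended with the pseudocount at the median of all signals (0.98), median centring (0.96), loess (0.95), quantile normalization (0.92) and poly-A scaling (0.47).

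Ddit4l, which encodes the DDIT4 relative REDD2, read 204, 138 and 75.6 in control against 783, 512 and 296 in DKK1 cells. The 3 probe sets differed alike, and the gene was higher at 1.80 (SD 0.05), against −2.21 for Ddit4. Chac2, a glutathione-degrading relative of Chac1 that is not known as a stress-induced gene, had 768 and 698 (−0.14) and was not called. The Trib3 relative Trib2 had 1883 and 2983 on its measured probe set (0.66) and was not called. Trib2 stood at 0.02 with poly-A scaling and at 1.03, called higher, with hybridisation control scaling. Trib1 was not measured, with signals of 13.4 and 87.9 on its brighter probe set. Stk40, a more distant pseudokinase gene, was at −0.55, not called. It stayed below 0 under all 12 alternatives and was called lower with poly-A scaling (−1.18). Of the 6 measured relatives 0 were called lower and 3 higher, against 6.91% and 11.7% of all measured genes. Ddit4l and Sesn1 stayed called higher under all 12 alternative settings.

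**Figure D4:**
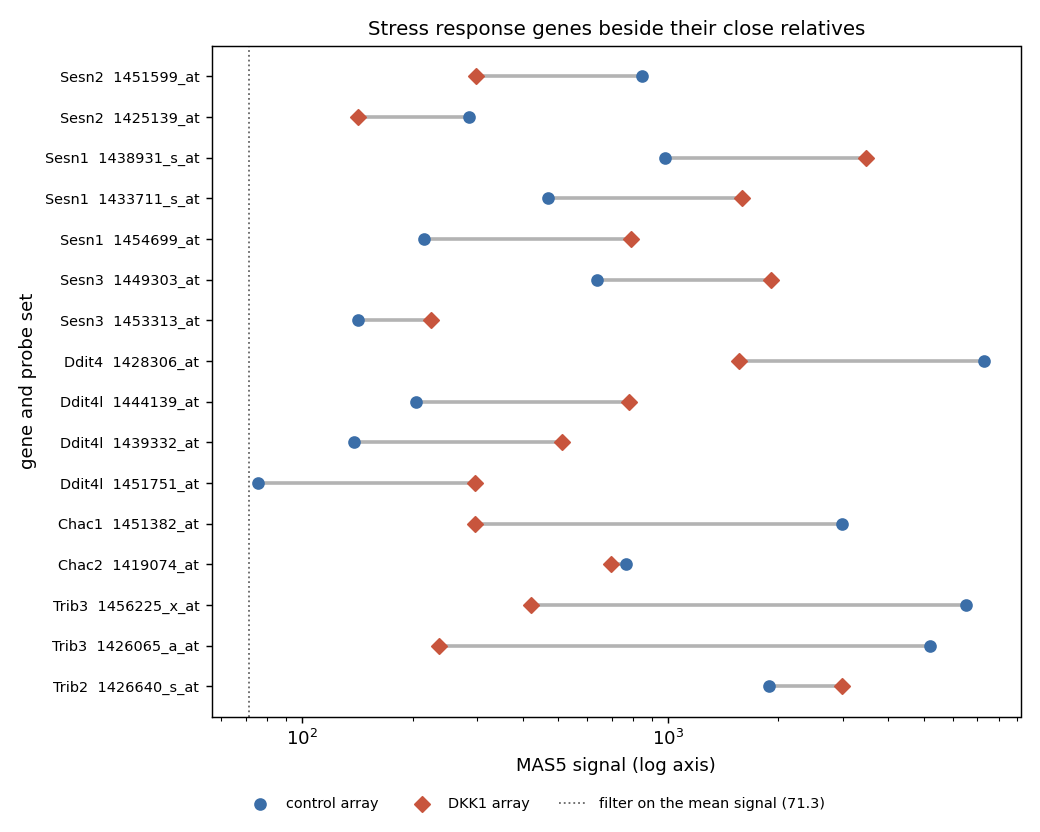
MAS5 signals (log axis) of the measured probe sets of Sesn2, Ddit4, Chac1 and Trib3 and of their relatives, on the control array (blue circles) and the DKK1 array (red diamonds). The diamond lies left of the circle in each probe set of the 4 stress response genes and to the right in those of Sesn1, Sesn3, Ddit4l and Trib2.

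Other bZIP factor genes were mixed. Of 27 measured, 4 were called lower (14.8%) and 2 higher, with a median of −0.28. Over all measured genes the shares were 6.91% lower and 11.7% higher. The endoplasmic reticulum stress sensor gene Atf6 (−1.62, SD 0.35 between 3 probe sets), the small Maf gene Maff (−1.43), Cebpd (−1.24) and the antioxidant regulator gene Nfe2l2 (−1.02) were lower. The calls of Cebpd and Nfe2l2 ended with hybridisation control scaling (−0.88 and −0.67), and that of Nfe2l2 also with the larger pseudocount (−0.91). The immediate early gene Fos (1.79) and the circadian factor gene Dbp (1.26) were higher, Dbp not with poly-A scaling (0.65). Xbp1, which carries another branch of the unfolded protein response, was not called (−0.75), except with poly-A scaling (−1.38).

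The genes of TORC1 and its amino acid sensing complexes, on which Sesn2 and Ddit4 act, had a median of −0.07 over 27 measured genes. Of these 2 were called lower (7.41%) and 2 higher, against 6.91% and 11.7% of all measured genes. The TORC1 inhibitor gene Deptor was higher on all 4 measured probe sets, by 1.28 to 1.80, as was Castor2 (1.42), a relative of the arginine sensor gene. The GTPase gene Rragd (−1.93, signals of 178 and 34.5) and Sec13 (−1.04) were lower. The calls of Deptor, Castor2 and Rragd ended with the dim probe sets included, at 0.92, 0.75 and −0.62. On the poly-A scale Deptor (0.91) and Castor2 (0.82) fell short of 2-fold too, as did the brightest probe set of Castor2 alone (0.96). Sec13 was called in 9 of 12 alternatives, and not with hybridisation control scaling (−0.67), quantile normalization (−0.98) or loess (−0.93). Mtor itself was not called (−0.22), and its sign varied between alternatives (−0.82 to 0.35). Housekeeping genes had a median of −0.13, and Hprt (−1.06) was the 1 of 9 measured that was called, in 9 of 12 alternatives.

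With only a single difference to go by, the genes nearest to Trib3 in the plane of mean log2 signals on the 2 arrays were Ero1a at a distance of 0.34, Mthfd2 at 0.80 and Chac1 at 0.96. Signals of different probe sets depend on how well their probes bind, so this distance does not compare transcript levels.

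Each array was scaled to the same trimmed mean of 500.0 (without the highest and lowest 2%), and spike-in RNAs did not agree on that scale. The median over 18 hybridisation controls, which enter after labelling, was −0.37 on the log2 scale. Over 20 poly-A controls, which enter before labelling, it was 0.64. Rescaling on the first gave 5 of the 10 genes called lower, against 3.45% of all genes, and rescaling on the second gave 9, against 24.1%. Higher genes made up 62.9% of all calls as deposited, 86.2% on the first of these scalings and 15.0% on the second. The calls that ended under hybridisation scaling were those of Atf4 (−0.90) and Sesn2 (−0.84). Trib3, Atf3, Chac1, Ddit3 and Ddit4 were called lower under all 12 alternatives. Their highest values were −3.77, −3.28, −2.90, −2.09 and −1.84. The genes that poly-A scaling added were Atf5 (−1.56) and Cebpg (−1.43).

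**Figure D5:**
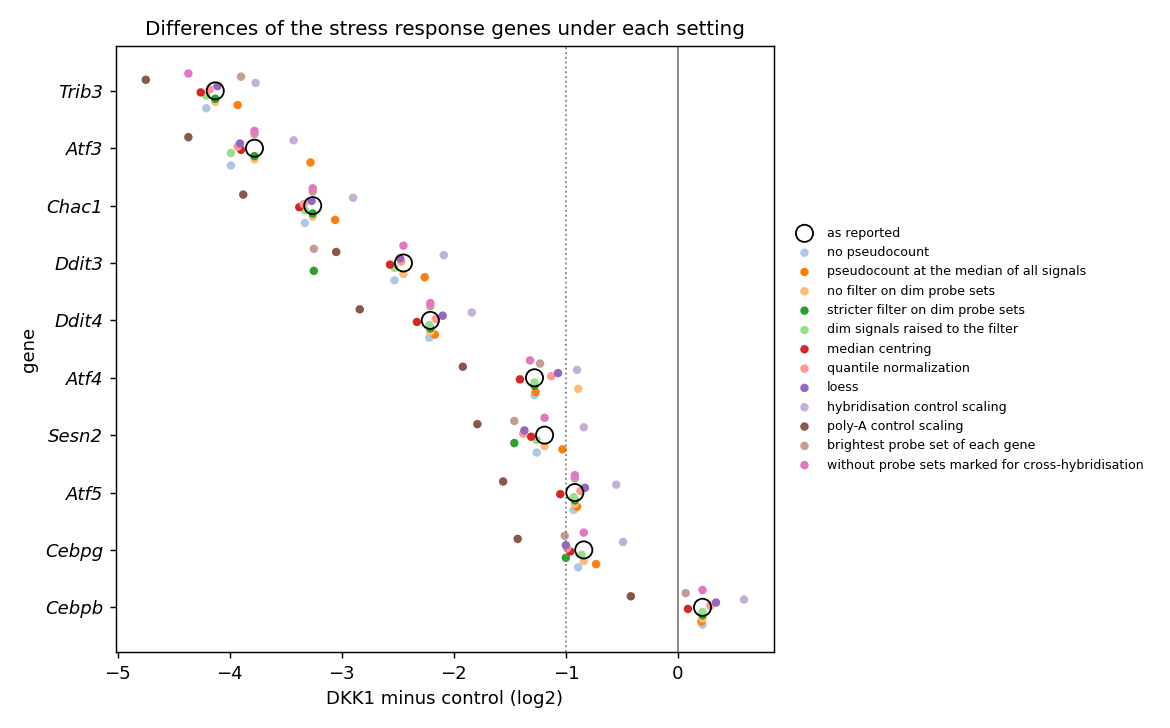
Difference DKK1 minus control (log2) of the 10 genes as reported (open circles) and under each of 12 alternative settings (coloured points), with a dotted line at 2-fold lower and a solid line at 0. Points of Trib3, Atf3, Chac1, Ddit3 and Ddit4 all lie left of the dotted line, those of Atf4, Sesn2, Atf5 and Cebpg on both sides of it, and those of Cebpb around 0.

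Markers were looked at for the identity of the cells. Of 7 osteoblast and osteosarcoma markers on the array with 1 symbol, 5 were measured and 0 called. All 5 differences were above 0 as reported, with a median of 0.36, while 44.1% of all measured genes were below 0. The matrix protein gene Sparc had signals of 8651 and 15921 on its brightest probe set (gene difference 0.94), and the collagen chain gene Col1a1 2150.2 and 6263 (0.79, SD 1.05). Both were called higher with hybridisation control scaling, at 1.29 and 1.16, Sparc also with the stricter filter and Col1a1 with its brightest probe set alone (1.54). With poly-A scaling Sparc was at 0.33 and Col1a1 at 0.16, not called. Col1a2, the other chain of bone collagen, had 31456 and 24640.2 on its brightest probe set but a difference of 0.05 (SD 0.41) over 3. It fell below 0 with median centring (−0.08), poly-A scaling (−0.58) and its brightest probe set alone (−0.35). Sp7 and Alpl were dim at 87.0 and 147 in control, and Ibsp and Pth1r were below the filter on both arrays. Of 9 leukocyte markers 4 were measured, with a summed signal over all their probe sets of 805 in control and 987 in DKK1 cells. The pan-leukocyte gene Ptprc stood at 11.7 and 4.24 on its brighter probe set, and Itgam at 4.42 and 3.31. Lyz2 (2.29) and Laptm5 (−1.10) were called in opposite directions, each on 1 measured probe set. Lyz2 passed the filter only through the DKK1 array, with signals of 14.5 and 136, and raising the dim one to the filter left 0.93, not called. Laptm5 had 113 and 44.2, kept its call in 6 of 10 alternatives and was at −0.15 with the dim probe sets included. Of 6 endothelial and 4 epithelial markers 1 and 2 were measured, with 0 called. Their part in the differences of the stress response genes was not tested.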

How the data were processed

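Total RNA from cell pellets of 1 control and 1 DKK1 sample was amplified and biotin-labelled from its 3′ end and read on 1 Affymetrix mouse array each, per the labels' protocols. The authors deposited intensity values on a linear scale, which the submitters' processing notes credit to MAS5 with no version. Symbols came from the platform annotation, updated through RefSeq gene IDs (GRCm38.p6): 34958 probe sets have 1 symbol and 932 several. Left out were 64 control probe sets, 13 of them with a symbol. Measured were 22499 other probe sets, of which the 19360 with 1 symbol carry the gene values.

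Computed from these values were log2 differences with the pseudocount (25th percentile of all signals) and the filter (median of the probe sets' mean signals), using Python 3.11.15, pandas 2.3.3 and statsmodels 0.14.6. The calling script was checked on simulated data, with changes well above 2-fold in bright genes only. That check does not cover calls near 2-fold or in dim probe sets. The number of arrays limits the precision, and with 1 array each a batch cannot be told apart from the group. The members and lists were chosen with earlier results of these data known. Named were all 10 members with every probe set, up to 3 called genes with the largest differences per list, the eIF2 kinases, Ppp1r15a, Ppp1r15b, the relatives and the 3 genes nearest to Trib3. Psph, Phgdh, Asns, Slc7a3, Slc38a2, Eif2s3x, Eif2b3, Cebpd, Nfe2l2, Dbp, Xbp1, Sec13, Mtor and the cell markers were added after their values were seen. Promoter windows were searched with regular expressions on both strands. The alternatives were pseudocounts, filters, scalings and choices of probe sets.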

Additional observations from a re-analysis of the deposited data

How the results depend on the processing

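Of the 10 genes, between 5 and 9 were called lower under the 12 alternatives. The share of all measured genes called lower ranged from 3.45% (hybridisation controls) to 24.1% (poly-A controls), the settings that gave the 5 and the 9. The median difference of the 10 genes stayed between −1.37 and −1.87 except with poly-A scaling, where it was −2.38 because that scaling lowers every gene. Called genes of the 10 kept their sign in all of them. Counts of other lists moved with the scaling. Genes called lower went from 4 to 2 (hybridisation controls) and 9 (poly-A controls) of 20 for eIF2 and its kinases. They went from 4 to 2 and 12 of 27 for bZIP factors, and from 2 to 1 and 8 of 27 for TORC1. For housekeeping genes they went from 1 to 0 and 2 of 9, and for the relatives from 0 to 1 of 6 with poly-A controls. Over all measured genes the share went from 6.91% to 3.45% and 24.1%. Quantile normalization and loess also gave 1 for TORC1 and 0 for housekeeping genes, against 8.82% and 8.63% of all measured genes. Both filter alternatives gave 1 for TORC1, of 27 genes without the filter and of 19 with the stricter one. The shares of all genes were then 5.63% and 8.82%. Other ATF4-induced genes called lower ranged from 29 of 44 (hybridisation controls) to 41 of 44 (poly-A controls), against 37 as reported. No paired analysis was possible because each group has 1 array. Dim signals set the precision of Cebpg, Trib1 and the third Atf4 probe set.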
